A study of Homo sapiens with 4 samples.

Results

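In all, 10 genes that encode the core cardiac transcription factors were followed through retinoic acid (RA) treatment of differentiating human embryonic stem cells (hESCs): NKX2-5, GATA4, GATA5, GATA6, TBX5, TBX20, HAND1, HAND2, MEF2A and MEF2C. Membership goes by gene name alone, although the list was drawn up with earlier results of these data known, and all 10 were found among the 60234 Ensembl genes of the counts, each with reads in all 4 libraries. The cells came from the NKX2.5:GFP line, an established hESC reporter line in which GFP takes the place of an allele of NKX2-5, so that a cell fluoresces once the locus is active. Cultures were differentiated towards heart by the spin embryoid body method and received either 1 µM RA or the solvent DMSO (CTR) from day 4 to day 7. At day 31 the cells were sorted into GFP-positive and GFP-negative fractions, and total RNA of the resulting 4 populations (RA GFP-positive, RA GFP-negative, CTR GFP-positive, CTR GFP-negative) was sequenced, with 1 library each.

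These factors work as a mutually reinforcing network in the developing heart. NKX2-5 is a homeodomain protein, GATA4, GATA5 and GATA6 are zinc finger proteins, TBX5 and TBX20 are T-box proteins, HAND1 and HAND2 are basic helix-loop-helix (bHLH) proteins, and MEF2A and MEF2C are MADS-box proteins. They bind side by side at the control regions of sarcomere, ion handling and natriuretic peptide genes. Several are not limited to the heart: GATA4 and GATA6 also act in gut endoderm and in mesenchyme, HAND1 in extraembryonic tissue, and MEF2 proteins in other muscle and in neurons. RA is a patterning signal that favours the inflow, atrial side of the forming heart.

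The libraries held between 4371101 reads (CTR GFP-negative) and 28643091 reads (CTR GFP-positive). Counts were converted to counts at a common library total (CPM), with factors from the trimmed mean of M values (TMM) over the 4 libraries. All intervals are 95% intervals that cover counting error only. They do not cover the spread between cultures, which a single library per condition cannot show. Differences between conditions are described with these intervals and were left untested. RA and CTR cells were also separate cultures, so treatment and culture cannot be told apart. As a check of the cell types, the 8 cardiomyocyte markers summed to 17957 and 14748 CPM in the GFP-positive cells of the CTR and RA cultures and to 718 and 327 CPM in the GFP-negative cells. None of the 8 was at 0 in any library.

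The factors differed widely in abundance. Compared per kilobase of exon, NKX2-5 stood highest in both GFP-positive libraries, with 290 CPM per kilobase in CTR and 226 with RA, and it lies on chromosome 5 of GRCh37 (chr5:172659112-172662314, minus strand). In CTR GFP-positive cells it was followed by TBX20 (159), HAND2 (127) and GATA4 (119), then by GATA5 (52.7) and GATA6 (52.3), whose counting intervals overlapped, and by MEF2A (41.7), TBX5 (21.9), HAND1 (10.6) and MEF2C (4.79). With RA the order in GFP-positive cells changed: GATA4 was second (136 CPM per kilobase), TBX20 went from second to sixth place (49.5), where its interval overlapped that of GATA5 (49.8), and HAND1 was last (2.20). In GFP-negative cells NKX2-5 was seventh with either treatment. There GATA4 (48.0) and GATA6 (27.8) led in CTR and GATA6 (47.5) and GATA4 (43.1) with RA. In the shallow CTR GFP-negative library many neighbours could not be ordered: the intervals overlapped for GATA6 and HAND2, for MEF2A and GATA5, and from TBX20 through NKX2-5 and HAND1 to TBX5. In RA GFP-negative cells they overlapped for NKX2-5 (4.76) and TBX5 (4.64) and for TBX20 (2.30) and MEF2C (2.03). MEF2C was lowest per kilobase in CTR GFP-positive, CTR GFP-negative and RA GFP-negative cells, but its merged exons are long (11755 bases), and the order depends in part on the length used. With the longest single transcript as the length, HAND2 (165 CPM per kilobase) stood ahead of TBX20 (160 CPM per kilobase) in CTR GFP-positive cells, and TBX20 was again sixth with RA. With that length GATA4 (54.6) stood ahead of GATA6 (49.8) in RA GFP-negative cells, so that GATA4 led with either treatment, and in CTR GFP-negative cells HAND2 (30.6) stood ahead of GATA6 (29.1) and NKX2-5 was sixth. MEF2C then had 7.73 CPM per kilobase in CTR GFP-positive cells and was ninth, not last, in RA GFP-negative cells.

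**Figure D1:**
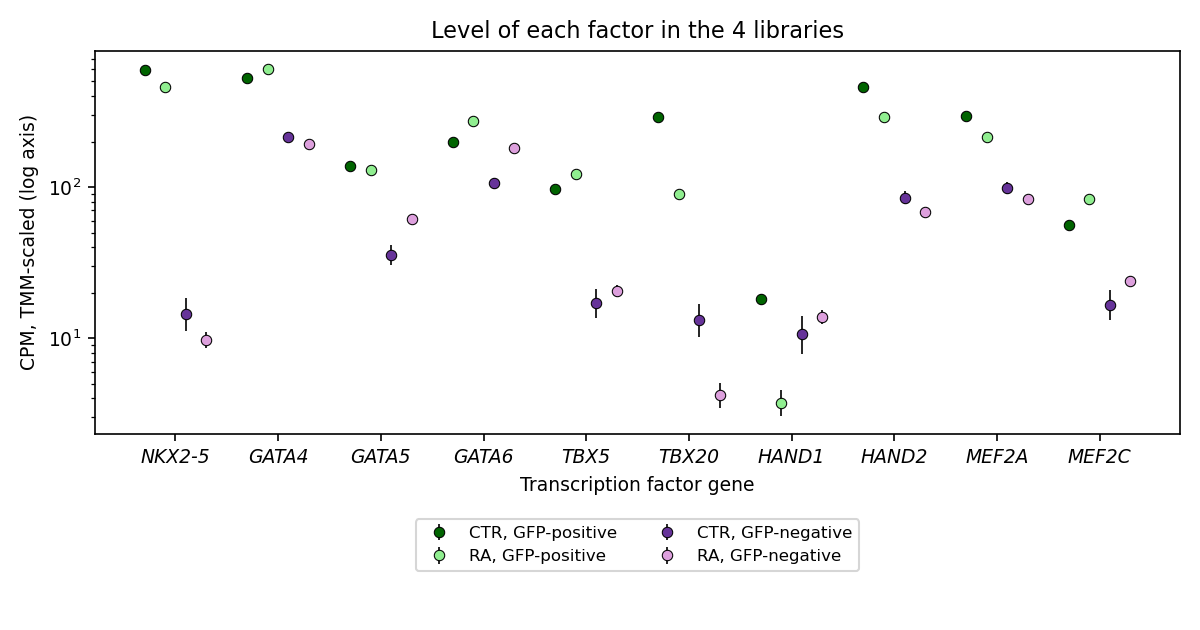
TMM-scaled CPM on a log axis for the 10 factors in the 4 libraries. Points are single libraries and bars are exact Poisson 95% intervals, which cover counting error only. The green GFP-positive points lie above the purple GFP-negative ones for 9 factors in both cultures; for HAND1 the RA GFP-positive point (3.74 CPM) is the lowest.

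With RA, 2 of the 10 factors were at least 2-fold lower in GFP-positive cells on the log2(CPM + 1) scale, TBX20 and HAND1, and none was 2-fold higher. Of all 11186 genes that reached 10 CPM in a library of the pair, 5.81% passed this threshold in either direction, 1.67% lower and 4.14% higher. In GFP-negative cells 1 factor passed it, TBX20, again lower, against 8.13% of 11606 genes in either direction, 3.18% lower and 4.95% higher. The median difference of the 10 factors was -0.22 in GFP-positive cells, beside 0.02 over all genes, and 0.05 in GFP-negative cells, beside 0.08. The latter median of the factors turned negative under 3 other scalings (-0.077 to -0.033). In GFP-positive cells the counting interval of the ratio left out 1 for all 10 factors, above it for GATA4, GATA6, TBX5 and MEF2C and below it for NKX2-5, GATA5, TBX20, HAND1, HAND2 and MEF2A. At this depth the same held for 68.6% of the 11186 genes, 36.2% above and 32.4% below, so that the count says little about the factors in particular. They lay on both sides of 1, and members of the same family lay on opposite sides of 1 for the T-box, MEF2 and GATA genes. For the GATA genes this rests on GATA5, whose direction was not kept with libraries thinned to the smallest.

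**Figure D2:**
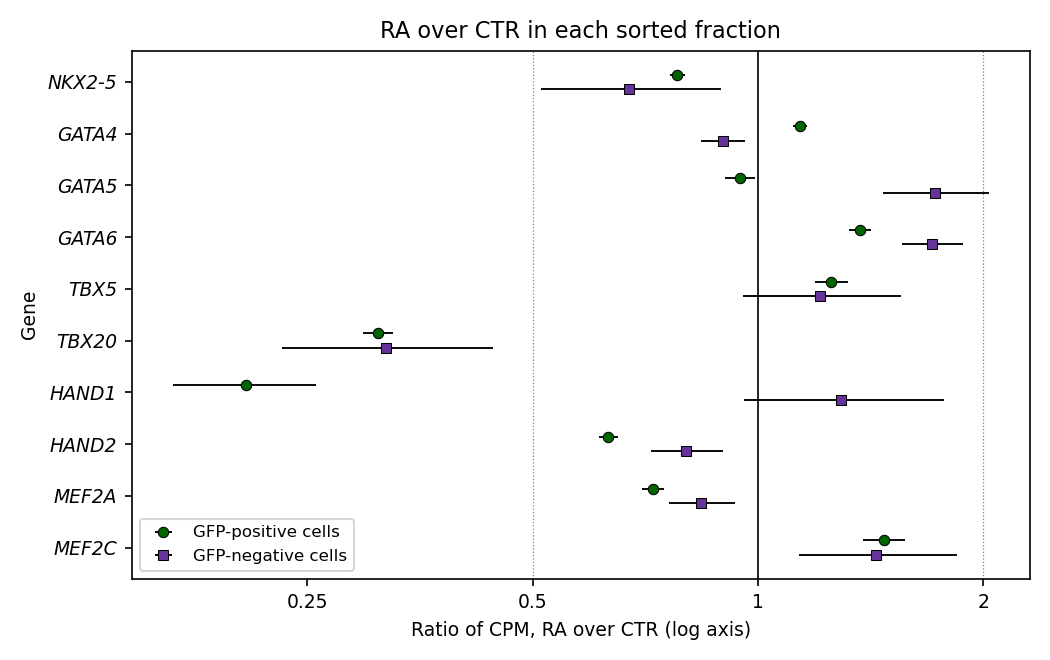
Ratio of CPM with RA over CTR (log axis) for each factor in GFP-positive cells (circles) and GFP-negative cells (squares), with Clopper-Pearson 95% intervals for counting error. The solid line marks no difference and the dotted lines 2-fold. TBX20 lies near 0.31 in both fractions, whereas the HAND1 circle is at 0.207 and its square at 1.29.

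TBX20, a T-box factor required for chamber growth and for restraining other T-box genes, was the only factor at least 2-fold lower with RA in both fractions on the log2(CPM + 1) scale, and with a pseudocount of 5 CPM its difference in GFP-negative cells (-0.98) no longer reached 2-fold. It lies on chromosome 7 (GRCh37 chr7:35242042-35293711, minus strand). Its reads numbered 8337 in CTR and 2418 with RA in GFP-positive cells, or 291 and 90.4 CPM. In GFP-negative cells they were 62 and 108, or 13.2 and 4.21 CPM. Both RA libraries were below the CTR library of the same fraction. The ratio of RA to CTR was 0.311 (0.297 to 0.325) in GFP-positive and 0.319 (0.231 to 0.443) in GFP-negative cells, and the ratio of these ratios, 0.975, had an interval from 0.699 to 1.35 that held 1. Its difference of -1.68 in log2(CPM + 1) was the 51st lowest of 11186 genes in GFP-positive cells, and that of -1.45 the 145th lowest of 11606 in GFP-negative cells. The cardiomyocyte markers differed in the same direction: 7 of 8 were lower with RA in GFP-positive cells (median -0.60) and 8 of 8 in GFP-negative cells (median -1.32). A wider list of 26 cardiac target genes, described below, was more mixed in GFP-positive cells, with 11 higher and 15 lower (median -0.08). Its sum there was 26779 CPM in CTR and 27806 with RA. The part of either list in the TBX20 difference was not tested, and in such bulk samples fewer cells of a type and less RNA per cell cannot be told apart.

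TBX5, the T-box factor of the atria, left ventricle and forelimb, went the other way in GFP-positive cells. It is on chromosome 12 (chr12:114791716-114846247, minus strand). It had 2787 reads (97.3 CPM) in CTR and 3260 (122 CPM) with RA, a ratio of 1.25 (1.19 to 1.32). In GFP-negative cells it had 80 and 529 reads (17.0 and 20.6 CPM), and the interval of the ratio of 1.21, 0.955 to 1.55, did not leave out 1. The share of each T-box factor in the reads of the pair is free of library scaling but gives only the ratio of one to the other. TBX5 made up 25.1% (24.3 to 25.9) of the reads of the pair in CTR GFP-positive cells and 57.4% (56.1 to 58.7) with RA. In GFP-negative cells its share was 56.3% (47.8 to 64.6) in CTR and 83.0% (79.9 to 85.9) with RA. Per kilobase of exon the TBX5 share was lower throughout, 12.1% and 35.7% in GFP-positive and 34.7% and 66.8% in GFP-negative cells, with the same order of CTR and RA.

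HAND1, a bHLH factor of the left ventricle and of extraembryonic tissue, was the least abundant of the 10 by CPM in 3 of the 4 libraries, all but RA GFP-negative. It is on chromosome 5 (chr5:153854532-153857787, minus strand). In GFP-positive cells it had 518 reads in CTR and 100 with RA, or 18.1 and 3.74 CPM. The ratio was 0.207 (0.165 to 0.257), and the difference of -2.01 was the 19th lowest of 11186 genes. In GFP-negative cells it had 50 and 353 reads, or 10.6 and 13.8 CPM, a ratio of 1.29 whose interval, 0.959 to 1.77, held 1. HAND1 was thus below CTR in GFP-positive cells and could not be told from it at this depth in GFP-negative cells, and the ratio of both ratios was 0.161 (0.109 to 0.234). The level in RA GFP-positive cells was below that in RA GFP-negative cells, a ratio of 0.272 (0.215 to 0.340), and it was the only factor for which this was so.

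HAND2, the bHLH factor of the right ventricle, outflow tract and neural crest derivatives, is on chromosome 4 (chr4:174446120-174451380, minus strand). It had 13115 reads (458 CPM) in CTR and 7728 (289 CPM) with RA in GFP-positive cells, and 399 (85.0 CPM) and 1750 (68.2 CPM) in GFP-negative cells. RA was below CTR in both fractions, with ratios of 0.631 (0.614 to 0.649) and 0.803 (0.719 to 0.897). Neither reached 2-fold. As a share of the reads of both HAND genes, HAND1 went from 3.80% in CTR to 1.28% with RA in GFP-positive cells (7.72% and 2.67% per kilobase of exon). In GFP-negative cells the share was 11.1% (8.38 to 14.4) in CTR and 16.8% (15.2 to 18.5) with RA (21.0% and 29.9% per kilobase), and both of these shares were above those of the GFP-positive libraries.

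The stretch of 250 bases before the RefSeq start site was read for the T-box gene and both bHLH genes that were lower with RA, and for GATA6, which was higher and also has an antisense neighbour. The sequences are credited to RefSeq (GRCh38.p14). Each was matched once in GRCh37, where only its own chromosome was searched, and outside any annotated UTR: HAND1 at chr5:153857788-153858037, HAND2 at chr4:174451381-174451630, TBX20 at chr7:35293712-35293961, all on the minus strand, and GATA6 at chr18:19749300-19749549 on the plus strand. They run 5′ to 3′ towards the start site, and capitals mark matches on either strand to the motifs searched.
HAND1: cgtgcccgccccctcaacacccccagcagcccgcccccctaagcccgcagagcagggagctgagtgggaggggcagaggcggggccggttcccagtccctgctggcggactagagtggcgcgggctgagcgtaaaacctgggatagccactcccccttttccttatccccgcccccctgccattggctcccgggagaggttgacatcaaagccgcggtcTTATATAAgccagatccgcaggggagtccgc
HAND2: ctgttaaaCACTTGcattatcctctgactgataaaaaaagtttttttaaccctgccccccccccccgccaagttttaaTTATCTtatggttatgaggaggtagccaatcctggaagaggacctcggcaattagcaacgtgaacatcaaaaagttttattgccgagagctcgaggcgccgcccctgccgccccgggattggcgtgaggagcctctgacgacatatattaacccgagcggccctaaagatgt
TBX20: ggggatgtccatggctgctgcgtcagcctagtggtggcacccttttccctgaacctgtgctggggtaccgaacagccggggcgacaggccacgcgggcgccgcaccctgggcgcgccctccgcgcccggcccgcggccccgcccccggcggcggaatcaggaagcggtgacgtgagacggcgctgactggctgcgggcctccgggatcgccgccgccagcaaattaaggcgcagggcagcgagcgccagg
GATA6: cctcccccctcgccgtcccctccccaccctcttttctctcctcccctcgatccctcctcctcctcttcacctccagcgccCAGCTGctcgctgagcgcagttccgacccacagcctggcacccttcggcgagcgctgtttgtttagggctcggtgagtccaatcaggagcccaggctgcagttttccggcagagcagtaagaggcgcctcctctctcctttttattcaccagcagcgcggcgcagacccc
The motifs were the GATA motif AGATAA, the E-box CANNTG of bHLH factors, the NKX2-5 motif TNAAGTG, the T-box half-site AGGTGTGA, the MEF2 motif (CTA and TAG, 4 bases apart), the RA receptor half-site AGGTCA, that half-site repeated after 5 bases, and TATANAA, which was added after the sequences were seen. Of 27305 genes with such a window, 9.37% held the GATA motif, 62.2% an E-box, 8.84% the NKX2-5 motif, 0.787% the T-box half-site, 2.42% the MEF2 motif, 12.1% the RA receptor half-site, 0.00366% the repeat and 8.78% TATANAA. The HAND2 window held a GATA motif that starts 172 bases before the start site (capitals TTATCT, its reverse complement) and an E-box (CACTTG) at 242 bases. The HAND1 window held TATANAA on both strands in an overlapping match 30 and 31 bases before the start site, the GATA6 window an E-box (CAGCTG) at 170 bases, and the TBX20 window none of these letters. Of the 10 factors 7 had such windows, and none of the 7 held the repeated RA receptor half-site. Only 1 of the 27305 genes holds that repeat, so its absence says little. The single half-site was found in 1 MEF2C window, 96 bases before that start, and in no window of the other factors. MEF2C has several starts and so several windows, whereas the share of 12.1% takes 1 window per gene. Windows of TBX5, MEF2A and MEF2C also held E-boxes, and a MEF2A window held a MEF2 motif at 23 bases. A match is a description of letters and not evidence of binding.

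The 3 GATA genes did not differ together. GATA4 (chr8:11534468-11617511, plus strand), the GATA factor most closely tied to early heart formation, had 15177 reads in CTR and 16118 with RA in GFP-positive cells (530 and 603 CPM), and 1001 and 4914 in GFP-negative cells (213 and 192 CPM). Its ratios lay close to 1 on opposite sides, 1.14 (1.11 to 1.16) and 0.898 (0.839 to 0.962). GATA5 (chr20:61038553-61051051, minus strand), linked to the endocardium and to gut epithelium, had 3956 and 3492 reads in GFP-positive cells (138 and 131 CPM). That was the smallest difference among the 10 in this fraction, a ratio of 0.946 (0.903 to 0.990). In GFP-negative cells GATA5 had 167 and 1574 reads (35.6 and 61.3 CPM), a ratio of 1.72 (1.47 to 2.04). GATA6 (chr18:19749550-19782491, plus strand), a factor of outflow tract and of endoderm, was higher with RA in both fractions. Its reads were 5695 and 7278 in GFP-positive cells (199 and 272 CPM; ratio 1.37, 1.32 to 1.42) and 496 and 4628 in GFP-negative cells (106 and 180 CPM; ratio 1.71, 1.56 to 1.88). None of these differences reached 2-fold.

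Within the GATA reads of GFP-positive cells the makeup was 61.1% GATA4, 15.9% GATA5 and 22.9% GATA6 in CTR and 59.9% GATA4, 13.0% GATA5 and 27.1% GATA6 with RA. In GFP-negative cells it was 60.2%, 10.0% and 29.8% in CTR and 44.2%, 14.2% and 41.6% with RA, and per kilobase of exon GATA6 (41.6%) was then ahead of GATA4 (37.8%). Per kilobase GATA5 (23.5%) and GATA6 (23.3%) were also level in CTR GFP-positive cells. Markers of gut and liver endoderm moved with this. In GFP-negative cells 7 of the 11 were at least 2-fold higher with RA and 1 (TTR) lower, and their sum went from 113 to 836 CPM. FOXA2 was at 0 reads in CTR GFP-negative cells and at 240 with RA, in libraries of 4371101 and 26222787 reads. AFP, a fetal liver secreted protein, had 14 and 11921 reads in these libraries (2.98 and 465 CPM). In GFP-positive cells, where FOXA1, FOXA2, HNF4A and CDX2 were at 0 in CTR, the sum was 29.4 CPM in CTR and 78.1 with RA. Their part in the GATA5 and GATA6 values was not tested.

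**Figure D3:**
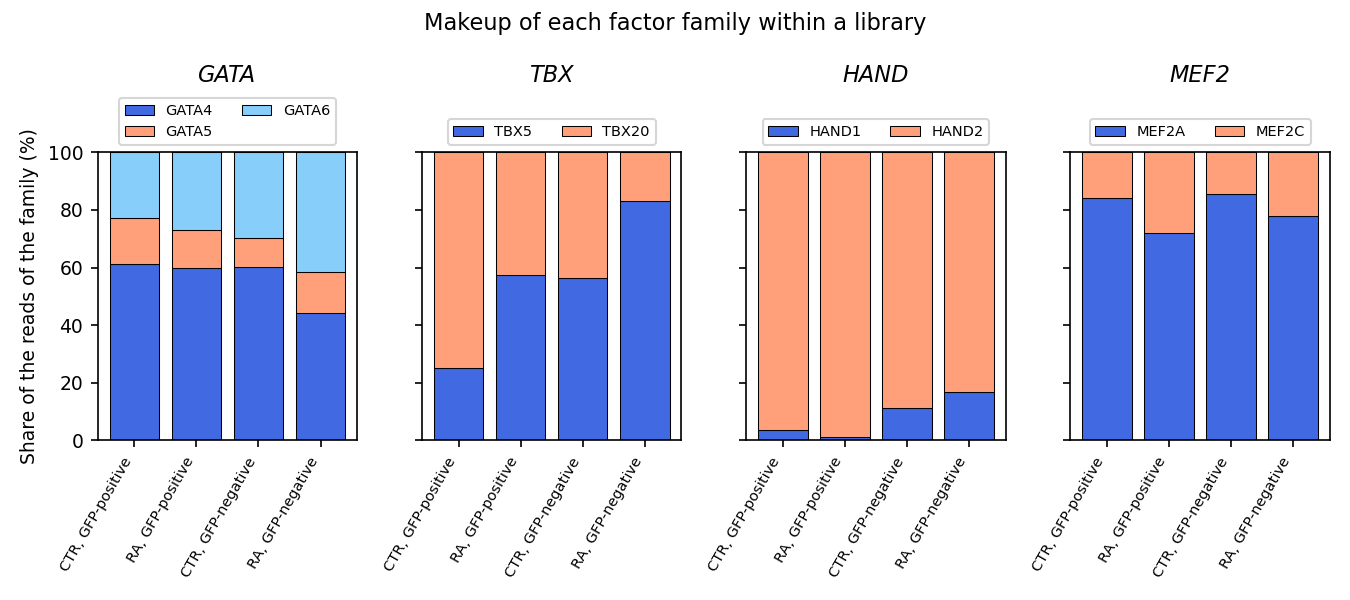
Share of each family's reads (%) taken by its members in the 4 libraries, for the GATA, T-box, HAND and MEF2 genes. Bars are single libraries and add to 100%; the TBX5 share is larger with RA in both fractions and the GATA6 share is largest (41.6%) in RA GFP-negative cells.

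NKX2-5, the homeodomain factor whose locus carries the reporter, had 16991 reads in CTR and 12373 with RA in GFP-positive cells (593 and 463 CPM), and 68 and 250 in GFP-negative cells (14.5 and 9.74 CPM). RA was below CTR in both fractions, by ratios of 0.780 (0.762 to 0.799) and 0.673 (0.513 to 0.893), and the ratio of these ratios, 1.16, had an interval of 0.873 to 1.52 that held 1. As the fractions were sorted on this locus, its difference between them follows from the sort. Any part of the sort in the RA ratios was not tested.

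The MEF2 genes lay on opposite sides of 1 in both fractions. MEF2A (chr15:100105622-100256693, plus strand), a MADS-box factor of mature muscle, had 8514 reads in CTR and 5749 with RA in GFP-positive cells (297 and 215 CPM), and 466 and 2140 in GFP-negative cells (99.2 and 83.4 CPM). Its ratios were 0.724 (0.700 to 0.748) and 0.840 (0.760 to 0.931). MEF2C (chr5:88012934-88200074, minus strand), the MEF2 gene of the earliest heart progenitors, had 1612 and 2219 reads in GFP-positive cells (56.3 and 83.0 CPM) and 78 and 613 in GFP-negative cells (16.6 and 23.9 CPM). Its ratios of 1.47 (1.38 to 1.57) and 1.44 (1.13 to 1.84) were nearly the same in both fractions. The share of MEF2C among the reads of the pair was accordingly larger with RA, 27.8% against 15.9% in GFP-positive and 22.3% against 14.3% in GFP-negative cells. Per kilobase of exon it was 19.0% against 10.3%, and 14.8% against 9.21%, with the same order.

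The RA ratios of both fractions were compared for each factor. For 4 of the 10 the interval of the ratio of ratios held 1: NKX2-5, TBX5 (1.04, 0.804 to 1.32), TBX20 and MEF2C (1.03, 0.793 to 1.31). It left out 1 for GATA4 (1.27, 1.18 to 1.36), GATA5 (0.549, 0.462 to 0.648), GATA6 (0.802, 0.725 to 0.886), HAND1, HAND2 (0.787, 0.701 to 0.881) and MEF2A (0.861, 0.773 to 0.958), that is for 6 of 10 factors beside 56.8% of the 10385 genes that reached 10 CPM in both comparisons, taken with a log-scale interval. The interval of MEF2A held 1 once the mitochondrial and the 10 most abundant genes were dropped (0.825 to 1.02) and with libraries thinned to the smallest (0.762 to 1.06). HAND1 had by far the lowest of these values. Across both fractions 4 factors (NKX2-5, TBX20, HAND2 and MEF2A) were lower with RA in each, 3 (GATA6, TBX5 and MEF2C) higher in each, and 3 (GATA4, GATA5 and HAND1) differed in sign, beside 23.2%, 34.5% and 42.2% of these genes. The sign of GATA5 in GFP-positive cells is not firm, since its difference of -0.080 came to 0.0010 with libraries thinned to the smallest.

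Between the fractions of the same culture, 8 of the 10 factors were at least 2-fold higher in GFP-positive cells in CTR, beside 25.2% of 11806 genes in either direction, 11.9% of them higher and 13.3% lower. With RA 8 were higher and 1, HAND1, lower, beside 22.4% of 11850 genes, 9.97% higher and 12.4% lower. NKX2-5 is among the 8 in each culture, and its place in these counts was set by the sort on its locus. Apart from NKX2-5, TBX20 was the most divided between the fractions, 22.0-fold higher in GFP-positive cells in CTR (17.2 to 28.8) and 21.5-fold with RA (17.7 to 26.3), although its level was lower with RA in each. TBX5 (5.71-fold in CTR and 5.91-fold with RA) and HAND2 (5.39 and 4.24) came next in both cultures. In CTR they were followed by GATA5 (3.88), MEF2C (3.39), MEF2A (2.99) and GATA4 (2.48), and with RA by MEF2C (3.47), GATA4 (3.15), MEF2A (2.58) and GATA5 (2.13). GATA6 was the most evenly spread of the factors that were higher in GFP-positive cells with both treatments, 1.88-fold (1.72 to 2.07) and 1.51-fold (1.45 to 1.57). HAND1 was 1.70-fold higher (1.27 to 2.32) in CTR and 3.68-fold lower (2.94 to 4.64) with RA.

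The level in GFP-negative cells can be read as a percentage of that in GFP-positive cells. For the cardiomyocyte markers it ranged from 0.629% (CKM) to 13.9% (RYR2) in CTR and from 0.715% (MYBPC3) to 7.27% (RYR2) with RA. NKX2-5 (2.44% and 2.11%) and TBX20 (4.54% and 4.66%) lay within these ranges. GATA4 (40.2% and 31.8%), GATA5 (25.8% and 47.0%), GATA6 (53.1% and 66.3%), TBX5 (17.5% and 16.9%), HAND2 (18.6% and 23.6%), MEF2A (33.4% and 38.8%), MEF2C (29.5% and 28.8%) and HAND1 (58.9% and 368%) lay above them in both cultures. For TBX5 in CTR the counting interval reached down to the value of RYR2.

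**Figure D4:**
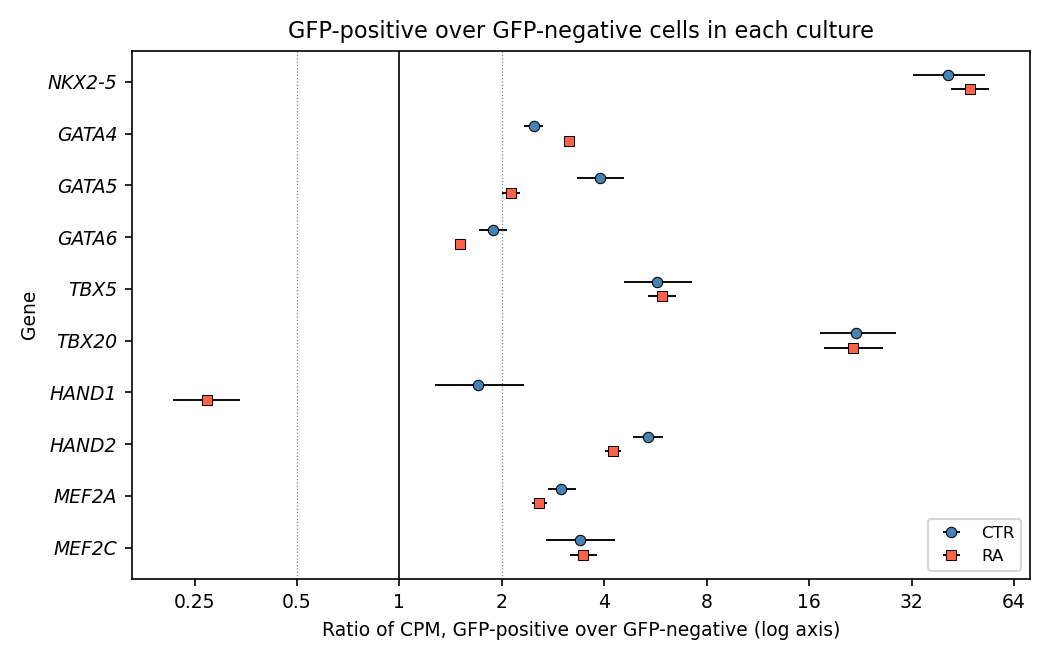
Ratio of CPM in GFP-positive over GFP-negative cells (log axis) for each factor in the CTR culture (circles) and the RA culture (squares), with Clopper-Pearson 95% intervals for counting error; the dotted lines mark 2-fold. NKX2-5 (40.9 and 47.5) and TBX20 (22.0 and 21.5) lie far to the right, and HAND1 crosses from 1.70 to 0.272.

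Several factors share their locus with an antisense RNA, a long non-coding transcript read from the other strand. The reads were counted without strand although the libraries kept it, and under the counting mode used a read that lies wholly in exon bases of both genes is assigned to neither. In the annotation used here the overlap is 24.1% of the exon bases of HAND2, 7.02% of TBX5, 2.47% of GATA6 and 3.99% of MEF2C. A further lncRNA on the opposite strand, ENSG00000266283, covers 8.45% of the exon bases of GATA6 and had 32 reads in CTR and 41 with RA in GFP-positive cells and 0 and 19 in the GFP-negative fraction. The interval of its RA ratio held 1 in both fractions. MEF2C-AS2, with 0 reads in every library, covers 1.77% of MEF2C. Where RefSeq gives several starts, the closest pair that runs apart was taken. The antisense start lies upstream of that of the factor by 229 bases for HAND2, 621 for GATA6, 183 for TBX5 and 146 for MEF2C. Other pairs of starts overlap instead, with the antisense start downstream of that of the factor, at -1629 bases for HAND2, -247 for TBX5 and -1206 and -20775 for MEF2C. In the annotation used for the overlap GATA6-AS1 (chr18:19744847-19749839) also reaches past the GATA6 start at 19749550. The GATA6 window printed above lies within GATA6-AS1 in that annotation. HAND2-AS1 had 7414 reads in CTR and 3741 with RA in GFP-positive cells and 184 and 608 in GFP-negative cells. Its ratios of 0.541 (0.520 to 0.562) and 0.605 (0.512 to 0.717) lay on the same side of 1 as those of HAND2, and lower.

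TBX5-AS1 had 388 and 916 reads in GFP-positive and 12 and 196 in GFP-negative cells. With ratios of 2.53 (2.24 to 2.86) and 2.99 (1.67 to 5.88) it exceeded TBX5 itself, and the antisense reads per 100 TBX5 reads went from 13.9 to 28.1 in GFP-positive cells. GATA6-AS1 went against GATA6. It had 3686 and 2522 reads in GFP-positive cells and 98 and 400 in GFP-negative cells, ratios of 0.733 (0.697 to 0.771) and 0.747 (0.597 to 0.941), while GATA6 was higher with RA in both. Per 100 GATA6 reads there were 64.7 antisense reads in CTR and 34.7 with RA in GFP-positive cells, an odds ratio of 0.535 (0.503 to 0.570), and 19.8 and 8.64 in GFP-negative cells, 0.438 (0.343 to 0.562). GATA6-AS1 was also more divided between the fractions than GATA6, at 6.16-fold higher in GFP-positive cells in CTR (5.04 to 7.61) and 6.05-fold with RA (5.44 to 6.74). MEF2C-AS1 was scarce, with 70 and 40 reads in GFP-positive cells and 0 and 6 in GFP-negative cells. LYSMD4, a protein-coding gene on the strand opposite to MEF2A that covers 11.1% of its exon bases, had ratios of 1.15 (1.03 to 1.28) and 0.822 (0.641 to 1.07).

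**Figure D5:**
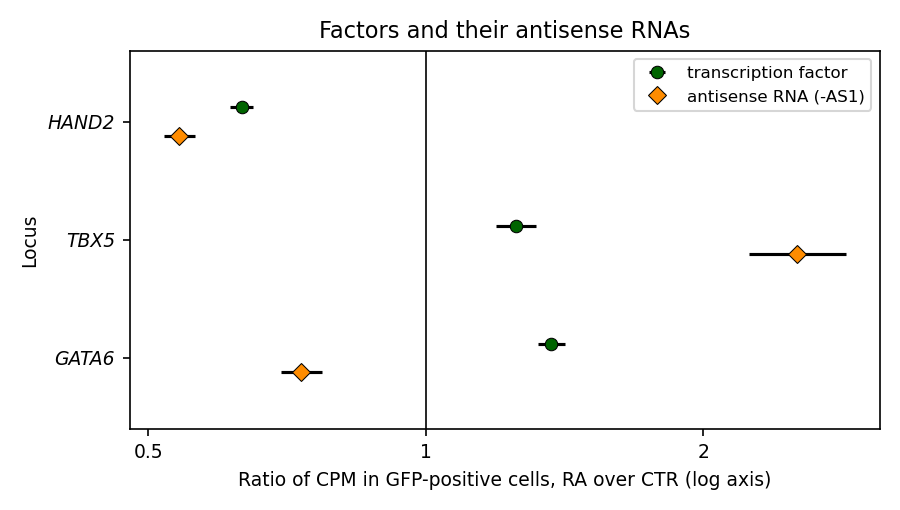
Ratio of CPM with RA over CTR in GFP-positive cells (log axis) for 3 factors (circles) and the antisense RNA of the same locus (diamonds), with Clopper-Pearson 95% intervals for counting error. At HAND2 and TBX5 both lie on the same side of 1; at GATA6 the factor is at 1.37 and the antisense RNA at 0.733.

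Few relatives of the factors were abundant. Of 23 paralogs of the same families, 5 reached 10 CPM in GFP-positive cells, and 2 of these were at least 2-fold lower with RA. TBX18, a T-box factor of the sinus horns and epicardium, had 801 reads in CTR and 282 with RA, a ratio of 0.377 (0.328 to 0.433). TBX3, a repressor that keeps conduction tissue from chamber fate, had 1300 and 566 reads, 0.467 (0.422 to 0.515). In GFP-negative cells 6 paralogs reached that level, 3 were higher and 1 lower. TBX1, a factor of the pharyngeal region and outflow tract, had 45 and 1024 reads (ratio 4.16, 3.09 to 5.75), TBX3 31 and 541 (3.19, 2.22 to 4.75) and TBX2, the other chamber repressor, 164 and 2043 (2.28, 1.94 to 2.69). TBX18 was lower there too, with 1261 and 3310 reads and a ratio of 0.480 (0.450 to 0.513). TBX18, like TBX20, was thus at least 2-fold lower with RA in both fractions, whereas TBX3 differed in sign.

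Of 17 protein partners and upstream factors, 16 could be compared in GFP-positive cells, where 1 was higher and 1 lower. ISL1, a LIM-homeodomain factor of second heart field progenitors and of the sinoatrial node, had 211 reads in CTR and 2077 with RA, 10.5-fold higher (9.15 to 12.2). SALL4, a zinc finger protein of early embryonic cells, had 506 and 212 reads, a ratio of 0.449 (0.381 to 0.528). None of 13 reached 2-fold in GFP-negative cells. The median differences of 0.11 and 0.20 in GFP-positive and GFP-negative cells stood beside 0.02 and 0.08 over all genes.

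Of 26 genes known as targets of these factors, 23 could be compared in GFP-positive cells, with 1 higher and 3 lower at 2-fold. NPPA, the atrial natriuretic peptide gene on which NKX2-5, GATA4 and TBX5 are known to act together, had 1083 reads in CTR and 3493 with RA, a ratio of 3.46 (3.23 to 3.70); counting without strand leaves it uncertain where NPPA-AS1 overlaps it. IRX4, a ventricular homeodomain factor, had 6907 and 1023 reads, 0.159 (0.148 to 0.169). MYL2, the ventricular myosin regulatory light chain, had 580 and 107, and MYH7, the slow myosin heavy chain, 60486 and 17766. The other 19 lay within 2-fold. In GFP-negative cells 18 could be compared, and 3 were lower: MYH7 (0.319), RYR2, the calcium release channel (0.378), and TNNC1, cardiac troponin C (0.385). MYL2 had 0 reads in both GFP-negative libraries. The median of the targets was -0.08 in GFP-positive cells, and in the GFP-negative fraction it was -0.27.

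Markers of other cell types also differed between the libraries, and their part in the values of the factors was not tested. All 7 fibroblast markers were at least 2-fold higher with RA in GFP-positive cells, where they summed to 3966 CPM in CTR and 15165 with RA, and 4 of 7 in GFP-negative cells (32089 and 61591 CPM). No fibroblast marker was at 0 in any library. Of 5 smooth muscle markers 3 were higher in GFP-positive cells (551 and 1135 CPM in sum) and 1 in GFP-negative cells (806 and 1490 CPM). Amnion and trophoblast markers summed to 47.7 and 153 CPM in GFP-positive cells and to 994 and 2137 CPM in GFP-negative cells. Of these, IGFBP3 alone made up 40.6 and 126 CPM in GFP-positive cells, and 960.0 and 1927 CPM in the GFP-negative fraction. In that fraction GABRP went from 9.16 CPM in CTR to 133 with RA, KRT7 from 10.9 to 33.4 CPM, and VTCN1 from 0 to 528 reads (20.6 CPM). CGA was at 0 reads in CTR GFP-negative and RA GFP-positive cells. Endothelial and endocardial markers came to 35.6 and 58.1 CPM in GFP-positive cells and to 353 and 418 in GFP-negative cells. Of these, NPR3 was at least 2-fold higher with RA in GFP-positive (3.28 to 21.2 CPM) and GFP-negative cells (56.9 to 135 CPM). TIE1 was so in GFP-negative cells (18.1 to 41.0 CPM), and 0 were 2-fold lower. Epicardial and mesothelial markers came to 42.6 and 68.8 CPM in GFP-positive cells and to 507 and 329 CPM in GFP-negative cells. Of the 6 epicardial and mesothelial markers, 3 reached 10 CPM in GFP-positive cells, and 1 of these was at least 2-fold higher and 1 lower with RA: ALDH1A2, an enzyme of RA synthesis, went from 9.46 to 39.3 CPM, and WT1, an epicardial zinc finger factor, from 11.6 to 2.88 CPM. Sums of neural crest and sympathetic markers were 13.3 and 68.3 CPM in GFP-positive cells, mostly PHOX2A (259 and 1671 reads), with FOXD3 at 0 with RA, and 30.0 and 39.6 CPM in GFP-negative cells. Skeletal muscle markers stayed at or below 15.0 CPM in sum in every library. Pluripotency markers summed to 0.907 and 4.26 CPM in GFP-positive cells and to 19.4 and 56.0 CPM in GFP-negative cells. In the latter POU5F1 had 0 reads in CTR and 395 (15.4 CPM) with RA, and NANOG 0 and 25. A count of 0 in the shallow CTR GFP-negative library allows 0.639 CPM, so the NANOG difference lies close to the floor.

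For each factor the 3 genes with the closest profile were taken, by Euclidean distance between centred log2(CPM + 1) values over the 4 libraries, among 12406 genes with at least 10 CPM in a library. With 4 points that include the sort, a small distance describes these libraries only. The nearest to NKX2-5 were CSRP3, MYH6 and LDB3 (distance of CSRP3 0.403), and to TBX20 C11orf21, TTN and SLC30A3 (0.621 for C11orf21), the farthest nearest neighbour of any factor. HAND1 was closest to STXBP6, PLXDC2 and S100A4, which like it were lowest in RA GFP-positive cells (STXBP6 2.77 CPM there and 13.7 in CTR GFP-positive cells; distance 0.139). PDLIM5 and BMP2 were among the closest to HAND2. GATA4 was nearest to NOD1, MT-ND1 and COX7B, GATA5 to PRRT1, TMEM201 and AKAP1, and GATA6 to SMAP2, MFSD14CP and CALN1. TBX5 lay nearest to CLIC5, ENSG00000254510 and GNG7, MEF2A to PFKM, GPI and PRKACB-DT, and MEF2C to ETV1, CIPC and HOMER1. Among the factors themselves GATA4 and MEF2A were the closest pair (0.465) and NKX2-5 and HAND1 the most distant (5.96). TBX20 was nearest to NKX2-5 (1.58), and HAND1 was nearer to GATA6 (2.14) than to HAND2 (2.90).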

How the data were processed

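The deposited values are counts of reads per Ensembl gene in each of 4 libraries. According to the paper's methods and the submitters' processing notes, the authors trimmed paired reads, mapped them to a modified hg19 genome with GSNAP, kept unique alignments, handled these with SAMtools 0.1.18 and counted with HTSeq 0.6.1p1 in intersection-nonempty mode without strand. Near-identical genes (such as POU5F1 with its pseudogenes, or MYH6 with MYH7) and overlapping genes are therefore uncertain.

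Of 60234 identifiers, 55538 were matched to a symbol. Coordinates and exon lengths are those of GENCODE v44 lifted to GRCh37, the build of hg19. Counts were scaled with TMM factors from edgeR 4.0.16 (R 4.3.3). Differences were taken in log2(CPM + 1), which understates low genes, and a gene was counted as higher or lower at a difference of at least 1 (2-fold on this scale) with at least 10 CPM in either library. CPM carry exact Poisson intervals, ratios and shares Clopper-Pearson intervals, and ratios of ratios and antisense odds ratios conditional (Fisher) intervals (over all genes log-scale Wald intervals with 0.5 added to each count), at the 95% level (scipy 1.17.1, Python 3.11.15). Amplified reads are not independent molecules, so these cover counting error only. A count of 0 allows 3 reads, or 0.639 CPM in the shallowest library and at most 0.117 CPM in the others. List medians were taken over genes with at least 4 reads in either library. GJA5 and PECAM1 were not analysed here, and some other genes of the lists and profiles are not reported here.

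The factors, gene lists and marker lists were chosen with earlier results of these data known. From each list all genes past the threshold with RA were eligible to be named, up to the 6 largest differences per list; others named (FOXA2, CGA and other genes given at 0, TTR, MYL2 in GFP-negative cells) were chosen after their values were seen. Groups come from the sample labels. The alternatives were 5 other scalings (library size, DESeq2 1.42.0 size factors, upper quartile, TMM by pair, and library size after dropping the mitochondrial genes and the top 10 by abundance), 0.25 and 5 CPM as the pseudocount, thinning to 4371101 reads, and other filters, thresholds and lengths. The procedure was checked on simulated data. Figures were drawn with matplotlib 3.10.9.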

Additional observations from a re-analysis of the deposited data

Results flagged for a closer look

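For 3 factors the RA difference in log2(CPM + 1) had opposite signs in the fractions; with 1 library per condition these differences between fractions were not tested. HAND1 differed by -2.01 in GFP-positive cells and by 0.34 in GFP-negative cells, where its 50 reads in CTR leave an interval that holds no difference. GATA5 differed by -0.080 and 0.77, and GATA4 by 0.19 and -0.15.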

How the results depend on the processing

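No replicate block was fitted: each condition has 1 library, the labels give no replicate numbers, and the ratios between fractions were taken within each culture. Under the 8 alternatives of scaling, pseudocount and depth, all 10 factors kept their direction in 3 comparisons and 9 of 10 in the RA comparison of GFP-positive cells, where GATA5 (-0.080) came to 0.0010 with libraries thinned to the smallest. TBX20 ranged from -1.75 to -1.63 in GFP-positive and from -1.59 to -0.98 in GFP-negative cells, and HAND1 from -2.20 to -1.40 in GFP-positive cells. The value nearest 0 came with a pseudocount of 5 CPM in each case, and this leaves 0 factors past 2-fold in the GFP-negative fraction. The median of the factors in GFP-positive cells became -0.29 by library size alone. In GFP-negative cells it changed sign, to -0.077 by library size alone, -0.033 with upper quartile factors and -0.065 once the mitochondrial and the 10 most abundant genes were dropped, and the median between fractions with RA (1.70) became 1.62 with a pseudocount of 5 CPM. With a threshold of 2 in place of 1, 1 factor was lower with RA among GFP-positive cells and 0 among GFP-negative cells, beside 1.44% and 1.80% of all tested genes in either direction. Between fractions, 4 (TBX5, TBX20, HAND2 and NKX2-5, the last set by the sort) were then higher in the GFP-positive one in each culture, and 0 were lower in the RA culture (10.1% of genes in CTR and 7.94% with RA). With 0.5, 1 factor was higher (MEF2C) and 3 were lower (TBX20, HAND1 and HAND2) with RA in GFP-positive cells, and 2 were higher (GATA5 and GATA6) and 2 lower (NKX2-5 and TBX20) in GFP-negative cells, beside 17.2% and 27.4% of genes; between fractions 10 were then higher in the GFP-positive one in CTR, and 9 higher and 1 (HAND1) lower with RA (50.1% and 45.9% of genes). The factors whose RA ratio differed between fractions beyond counting error, 6 in number, became 5, with MEF2A lost, once the mitochondrial and top genes were dropped and with thinned libraries. Over all genes the split of higher and lower calls with RA in GFP-negative cells, 574 and 369, became 448 and 512 by library size alone, 470 and 444 with upper quartile factors and 446 and 485 once the mitochondrial and the 10 most abundant genes were dropped; library size alone moved the median of all genes from 0.08 to -0.06. Over all genes with a filter of 1 CPM or with none, 889 were higher and 371 lower with RA in GFP-positive cells and 1620 and 1418 in GFP-negative cells. Per kilobase of exon the shares of HAND1, TBX5 and MEF2C differed from the shares of reads, and CTR and RA kept their order. The CTR GFP-negative library, with 50 to 80 reads for NKX2-5, TBX5, TBX20, HAND1 and MEF2C, limits the precision of these factors in GFP-negative cells.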
